A study of Homo sapiens with 20 samples.

Results

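The 10 genes described here encode the proteins with which a cell notices nucleic acid that should not be there. They are the RNA sensors RIGI, IFIH1, DHX58 and TLR3, the adaptor MAVS, the DNA sensors CGAS, IFI16 and AIM2, the Z nucleic acid sensor ZBP1 and the adaptor STING1. They were chosen by name, with earlier results of these data known, and all 10 had a row among the 43366 genes counted, RIGI under its older symbol DDX58. RNA-seq was performed on clones of U2OS, an osteosarcoma line that keeps its telomeres by recombination instead of telomerase. The groups were 5 WT clones without treatment, the same 5 after 24 h in 250 U/ml IFNγ, 5 clones with the genotype label ZBTB48 knockout (KO) without treatment and the same 5 with IFNγ, 1 library per clone and treatment and 20 libraries in all. ZBTB48 is a zinc finger protein that binds telomeric repeats and promoters.

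RIG-I, encoded by RIGI, and MDA5, encoded by IFIH1, bind viral or misplaced double-stranded RNA in the cytoplasm and signal through MAVS on mitochondria. LGP2, encoded by DHX58, lacks the signalling domains of both and tunes them, and TLR3 reads double-stranded RNA inside endosomes. cGAS makes the messenger cGAMP on cytosolic DNA, which STING1 receives, while IFI16 and AIM2 bind DNA directly, AIM2 to start an inflammasome, and ZBP1 binds left-handed nucleic acid and can start necroptosis. Several of these genes are themselves known to be raised by interferons, whose transcription factors bind the interferon-stimulated response element (ISRE) and the gamma-activated site (GAS). IRF1 is one of the factors through which IFNγ acts.

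The promoters that bear on this were read first. RefSeq promoter entries on GRCh38.p14, each with 250 bases before and 50 bases after the start given by the entry, were found for 6 of the 10 genes. DHX58, CGAS, ZBP1 and STING1 had no entry. The ISRE was searched as GAAANNGAAA and the GAS as TTCNNNGAA on both strands, with overlapping matches kept. Of 35116 RefSeq promoters of this length, 3.5739% held the first and 7.6575% the second. The 250 bases before the start are shown for IFIH1, TLR3 and AIM2, which held a match, and for RIGI, which rose with IFNγ and held none, with matched bases in capitals. They lie at chr2:162318685-162318934 on the minus strand (IFIH1), chr4:186068906-186069155 on the plus strand (TLR3), chr1:159076767-159077016 on the minus strand (AIM2) and chr9:32526197-32526446 on the minus strand (RIGI).
IFIH1: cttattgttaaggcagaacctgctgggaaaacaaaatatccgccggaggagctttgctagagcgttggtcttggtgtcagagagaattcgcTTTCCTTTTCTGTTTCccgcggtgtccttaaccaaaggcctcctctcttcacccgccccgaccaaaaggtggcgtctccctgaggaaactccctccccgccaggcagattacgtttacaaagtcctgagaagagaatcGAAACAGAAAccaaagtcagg
TLR3: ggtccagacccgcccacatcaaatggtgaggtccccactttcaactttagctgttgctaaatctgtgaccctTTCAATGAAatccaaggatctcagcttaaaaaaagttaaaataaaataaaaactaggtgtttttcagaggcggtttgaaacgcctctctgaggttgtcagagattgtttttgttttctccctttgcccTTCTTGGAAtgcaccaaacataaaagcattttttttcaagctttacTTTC
AIM2: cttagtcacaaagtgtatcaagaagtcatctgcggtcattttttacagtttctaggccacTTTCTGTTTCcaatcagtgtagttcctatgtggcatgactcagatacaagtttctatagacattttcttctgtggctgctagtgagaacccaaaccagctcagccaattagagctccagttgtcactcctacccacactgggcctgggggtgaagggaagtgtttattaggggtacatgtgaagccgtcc
RIGI: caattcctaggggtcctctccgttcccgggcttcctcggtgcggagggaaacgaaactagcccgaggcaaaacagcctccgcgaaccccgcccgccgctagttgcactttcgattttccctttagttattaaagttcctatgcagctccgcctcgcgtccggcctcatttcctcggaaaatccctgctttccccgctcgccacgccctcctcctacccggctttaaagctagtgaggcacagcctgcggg
IFIH1 held 3 matches to the ISRE, beginning 159, 153 and 21 bases before the start, of which the first pair overlap. TLR3 held 2 matches to the GAS, 178 and 50 bases before the start, and an ISRE match that begins 4 bases before the start and runs past it, so only its first letters are shown. AIM2 held 1 ISRE match, 190 bases before the start of its entry. The entries of AIM2 and IFI16 start inside the genes as counted, which begin at chr1:159147132 on the minus strand (AIM2) and chr1:158999976 on the plus strand (IFI16). MAVS, RIGI and both entries of IFI16 held neither motif as spelled here. RIGI and 1 entry of IFI16 hold the letters gaaacgaaa, with 1 base between the GAAA parts, which the spelling searched does not match. A match describes letters and is not a measured binding site.

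Total counts per library ranged from 46652288 to 72952859, and CPM below means counts divided by library size with edgeR's TMM factors, where 3 counts are worth between 0.0409 and 0.0608 CPM. The targeted gene ZBTB48 had 8.05 to 11.7 CPM in the WT libraries and 1.27 to 5.17 CPM in the libraries of 4 clones labelled KO. In the clone labelled KO replicate 3 it had 11.3 CPM without and 16.0 CPM with IFNγ, above every WT library of the same treatment. RNA counts do not show whether a working protein is made, so they do not decide that label. The group is called "labelled KO" throughout. Deviations of a library from its group mean, over 21052 genes, correlated at 0.63 to 0.80 between the untreated and the treated library of each WT clone and at 0.60 to 0.79 for KO replicates 1, 2 and 3. For KO replicates 4 and 5 they correlated at -0.02 and 0.04, and each correlated best with the other's number (0.59 and 0.67), so clone-by-clone values of these replicates are uncertain. Of 8 bone markers, COL1A1 (279 to 5598 CPM), SPARC, RUNX2 (18.6 to 90.4 CPM) and ALPL (from 0.986 CPM) were present in every library, while COL1A2 reached at most 0.955 CPM and SP7, BGLAP and IBSP were at or near 0. Of 8 leukocyte markers PTPRC reached 0.957 CPM and ITGAM, in a treated library labelled KO, 1.97 CPM, and the others stayed below 0.268 CPM. Of 4 epithelial markers EPCAM reached 12.6 CPM and KRT14 43.8 CPM, and their part in the results was not tested. IRF1, a transcription factor raised by IFNγ, rose from 16.8 ± 1.28 to 527 ± 61.9 CPM in WT clones and from 18.9 ± 6.74 to 500.1 ± 162 CPM in clones labelled KO (SD, n = 5).

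IFNγ raised the RNA sensors, whereas the levels of both adaptors and of CGAS overlapped between treated and untreated clones. In WT clones 6 of the 9 members tested were called higher and 0 lower, namely RIGI, IFIH1, DHX58, TLR3, IFI16 and AIM2, where called means an edgeR adjusted p under 0.01 and a change over 2-fold. Over all 19522 genes tested 2.48% were called higher. AIM2, with at most 8 counts in an untreated WT clone, passed the filter on low counts only through its treated libraries. It could thus enter the test only if it was high there. DHX58, with 6 to 15 counts in untreated WT clones, also passed in the fit of untreated libraries alone. Without the filter 5 members were called, AIM2 not among them, beside 488 of 33871 genes called higher. Of the 8 members tested in clones labelled KO, 4 were called higher, namely RIGI, IFIH1, DHX58 and IFI16, beside 1.7% of 19385 genes. In each genotype every treated library lay above every untreated one for 7 of the 10 members, RIGI, IFIH1, DHX58, TLR3, IFI16, AIM2 and ZBP1. All genes tested had such a gap in 7.27% of cases in WT clones and in 6.05% in clones labelled KO. ZBP1 in both genotypes, and AIM2 in clones labelled KO, failed the filter on low counts, so these shares do not cover them. Their gaps were narrow. ZBP1 had at least 4 treated counts against at most 3 untreated in WT clones, and 6 against 5 in clones labelled KO. AIM2 had 11 against 6 in clones labelled KO. With the clone as a block, 6 of 9 members were called in WT clones beside 4.44% of all genes, and 5 of 8 in clones labelled KO beside 2.71%, TLR3 being added. That block rests on the doubtful pairs of KO replicates 4 and 5, and with these left out it called 2 members, RIGI and IFI16. The median log2 fold change of the tested members was 1.62 in WT clones, where that of all genes was -0.03, and 1.44 in clones labelled KO, where that of all genes was -0.03.

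**Figure D1:**
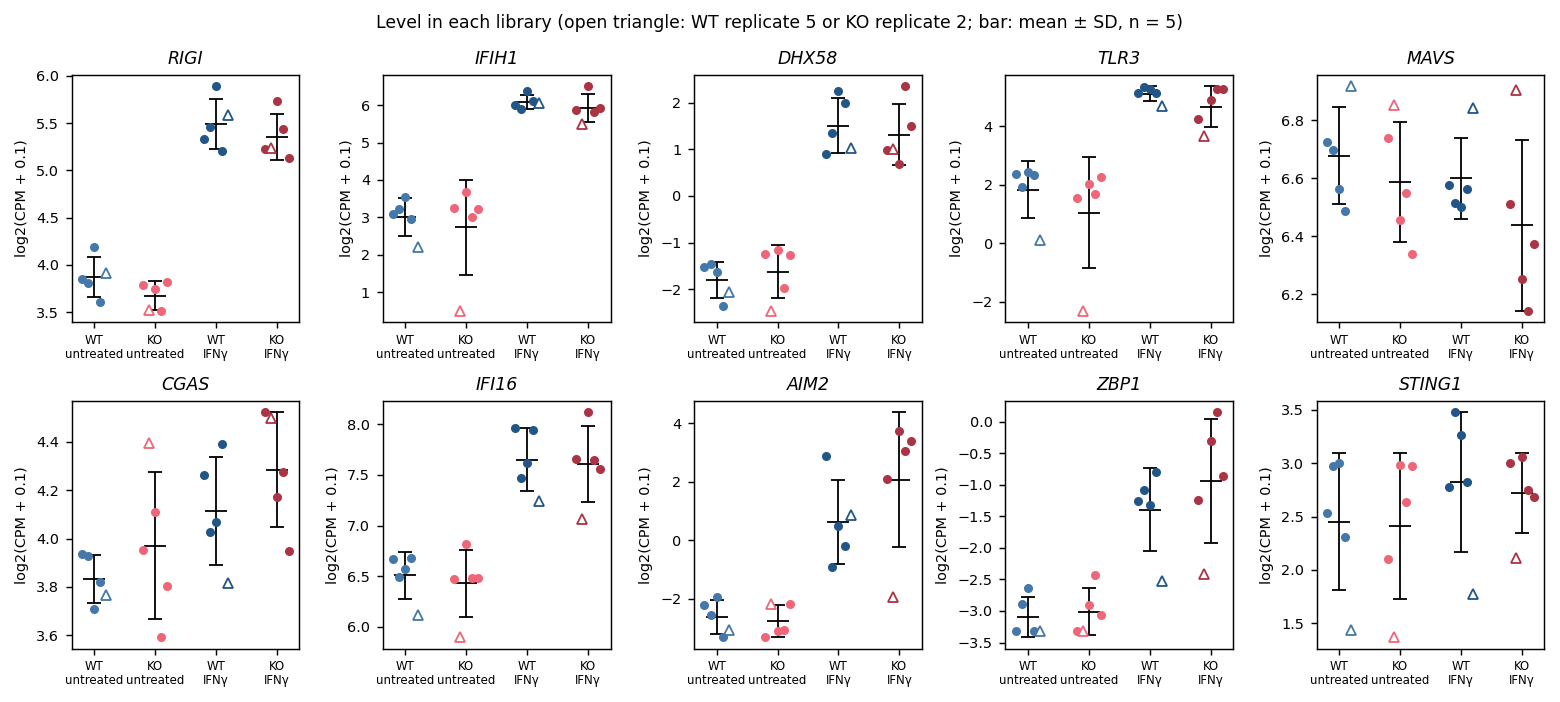
Level of each of the 10 genes in each library as log2(CPM + 0.1), in the order WT untreated, KO untreated, WT with IFNγ and KO with IFNγ. Points are libraries, bars are the mean ± SD (n = 5), and open triangles mark WT replicate 5 and KO replicate 2. Within each genotype, treated and untreated points do not overlap for 7 genes, and overlap for MAVS, CGAS and STING1.

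RIG-I is the sensor of short double-stranded RNA with a triphosphate end. RIGI had 14.3, 13.9, 18.2, 12.1 and 15.0 CPM in the untreated WT clones and 40.2, 43.8, 59.4, 36.7 and 47.9 CPM in the treated ones. In clones labelled KO it had 13.7, 11.4, 13.3, 11.3 and 14.0 CPM without and 37.4, 37.5, 53.3, 43.4 and 35.0 CPM with IFNγ. The highest untreated library thus stood below the lowest treated one in both genotypes, and the highest clone of a group exceeded its lowest by 1.24-fold to 1.62-fold. edgeR gave a log2 fold change of 1.62 (SE 0.15, edgeR adjusted p = 6.89e-05) in WT clones and 1.69 (SE 0.14, edgeR adjusted p = 4.51e-05) in clones labelled KO. RIGI shares 294 exonic bases with LOC124902138 on the other strand, a gene with at most 109 counts in a library.

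MDA5 is the sensor of long double-stranded RNA. IFIH1 had 8.43, 9.21, 11.6, 7.70 and 4.49 CPM in the untreated WT clones and 63.5, 59.5, 82.5, 68.8 and 66.0 CPM in the treated ones. The clones labelled KO had 9.43, 1.31, 12.8, 7.97 and 9.26 CPM without and 58.0, 44.9, 91.5, 56.5 and 60.0 CPM with IFNγ. KO replicate 2 was far below the other untreated libraries, yet after IFNγ the median of the other 4 was 1.31-fold above it. In bulk RNA, fewer cells with a transcript and less of it in each cell cannot be told apart. IFNγ changed the gene by a log2 fold change of 3.03 (SE 0.22, edgeR adjusted p = 8.32e-06) in WT clones and 2.93 (SE 0.47, edgeR adjusted p = 0.00374) in clones labelled KO.

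DHX58, the gene of the regulator LGP2, was scarce without IFNγ. It had 0.247, 0.265, 0.223, 0.0952 and 0.139 CPM in the untreated WT clones, from 6 to 15 counts, and 1.76, 2.46, 4.66, 3.87 and 1.95 CPM in the treated ones. Among clones labelled KO the values were 0.323, 0.0807, 0.346, 0.155 and 0.315 CPM without and 1.89, 1.90, 1.51, 5.03 and 2.73 CPM with IFNγ. All treated libraries stood above all untreated ones, and treated clones varied 2.65-fold (WT) and 3.33-fold (labelled KO) from lowest to highest. The log2 fold change was 3.90 (SE 0.40, edgeR adjusted p = 1.12e-04) in WT clones and 3.40 (SE 0.49, edgeR adjusted p = 0.00213) in clones labelled KO.

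TLR3, the endosomal receptor of double-stranded RNA, had 5.06, 3.66, 5.25, 4.97 and 0.991 CPM in the untreated WT clones and 35.1, 40.8, 38.3, 35.3 and 25.7 CPM in the treated ones. The libraries labelled KO held 2.81, 0.101, 3.99, 3.13 and 4.65 CPM without and 18.7, 12.5, 29.8, 38.8 and 38.8 CPM with IFNγ. WT replicate 5 and KO replicate 2 were the lowest of their groups with and without treatment, and the untreated KO replicate 2 held 5 counts. edgeR gave a log2 fold change of 3.12 (SE 0.37, edgeR adjusted p = 3.40e-04) in WT clones. For clones labelled KO it was 3.24 (SE 0.68, edgeR adjusted p = 0.0159), which missed the threshold although no treated library overlapped an untreated one. With the clone as a block it was 3.5 (SE 0.48, edgeR adjusted p = 0.00375), or 3.54 with KO replicates 4 and 5 left out of that fit (edgeR adjusted p = 0.0548), and without KO replicate 2 it was 3.12 (edgeR adjusted p = 1.90e-04).

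MAVS, on which RIG-I and MDA5 converge, had 106, 104, 94.5, 89.6 and 121 CPM in the untreated WT clones and 95.3, 91.4, 90.6, 94.5 and 115 CPM in the treated ones. Clones labelled KO had 107, 115, 87.7, 93.5 and 80.9 CPM without and 91.2, 120, 76.2, 70.6 and 82.8 CPM with IFNγ. The groups overlapped, and the log2 fold change was -0.09 in WT clones (95% interval -0.35 to 0.16, edgeR adjusted p = 0.698) and -0.14 in clones labelled KO (-0.49 to 0.20, edgeR adjusted p = 0.649). A change of 2-fold in either direction lay outside both intervals.

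Among the DNA sensors, the cyclic dinucleotide synthase CGAS had 15.2, 15.1, 13.0, 14.0 and 13.5 CPM in the untreated WT clones and 19.1, 16.2, 16.7, 20.9 and 14.0 CPM in the treated ones. In clones labelled KO it had 15.4, 20.9, 17.2, 12 and 13.9 CPM without and 22.9, 22.5, 17.9, 19.3 and 15.4 CPM with IFNγ. The treated library was the higher one in 10 of 10 clones, but the groups overlapped, and the log2 fold changes of 0.28 (SE 0.13, edgeR adjusted p = 0.202) and 0.30 (SE 0.17, edgeR adjusted p = 0.339) did not pass. With the clone as a block the change was 0.27 in WT clones (SE 0.08, edgeR adjusted p = 0.0172). In clones labelled KO, with the doubtful pairs included, it was 0.31 (SE 0.13, edgeR adjusted p = 0.131). Neither passed.

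IFI16, a DNA-binding protein of the nucleus and cytoplasm, had 102, 90.3, 95.4, 103 and 69.4 CPM in the untreated WT clones and 250.0, 177, 196, 247 and 152 CPM in the treated ones. The clones labelled KO had 88.5, 59.5, 113, 89.2 and 89.5 CPM without and 203, 134, 278, 200.1 and 188 CPM with IFNγ. Each clone rose by a similar factor, from 1.96-fold to 2.47-fold over the 10 clones, although their starting levels differed. IFNγ changed the gene by a log2 fold change of 1.14 (SE 0.16, edgeR adjusted p = 9.94e-04) in WT clones and 1.19 (SE 0.20, edgeR adjusted p = 0.00561) in clones labelled KO.

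AIM2, the DNA sensor of an inflammasome, was nearly silent without IFNγ, with 7, 4, 8, 0 and 1 counts in the WT clones and 0, 6, 1, 1 and 6 counts in the clones labelled KO. After IFNγ it had 7.25, 0.424, 1.28, 0.768 and 1.71 CPM in the WT clones and 4.17, 0.162, 13.2, 8.12 and 10.3 CPM in the clones labelled KO. Within each genotype every treated library exceeded every untreated one, but the treated clones spread widely, and KO replicate 2, at 11 counts, lay within the untreated range of the WT clones. The log2 fold change in WT clones was 4.94 (SE 0.97, edgeR adjusted p = 0.00768), and leaving out any 1 of the 5 clones put the adjusted p between 0.0198 and 0.0323. The gene had passed the filter on low counts only through its treated libraries. Without that filter the edgeR adjusted p was 0.0162, which missed the threshold. In clones labelled KO the gene did not pass the filter on low counts; from 14 untreated and 1984 treated counts in all, the ratio after scaling to library size was 131 (95% exact counting interval 78.1 to 241, counting error only). AIM2 and IFI16 lie side by side on chromosome 1 and share 101 exonic bases on opposite strands. The libraries were made stranded but the strand setting of the counting is not given in the sources used here, so reads in that stretch may have been assigned to either gene.

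ZBP1 had 0, 2, 3, 0 and 0 counts in the untreated WT clones and 17, 22, 22, 28 and 4 counts in the treated ones. Among clones labelled KO the values were 0, 0, 2, 5 and 1 counts without and 20, 6, 37, 56 and 25 counts with IFNγ. The gene failed the filter on low counts in both genotypes, and within each genotype no treated library overlapped an untreated one. From 5 untreated and 93 treated counts the scaled ratio was 17.9 in WT clones (95% exact counting interval 7.40 to 56.4). From 8 and 144 counts it was 16.7 in clones labelled KO (8.24 to 39.4). Both intervals hold counting error only and leave out the spread between clones.

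STING1, the adaptor downstream of cGAS, had 5.71, 7.76, 7.93, 4.86 and 2.61 CPM in the untreated WT clones and 6.75, 11, 9.5, 6.98 and 3.32 CPM in the treated ones. The libraries labelled KO held 4.2, 2.48, 7.83, 6.12 and 7.75 CPM without and 7.92, 4.21, 8.22, 6.60 and 6.34 CPM with IFNγ. The treated library was the higher one in 9 of 10 clones, by less than the clones differed from each other. The log2 fold change of 0.36 in WT clones did not pass without a block (SE 0.34, edgeR adjusted p = 0.58) or with one (SE 0.10, edgeR adjusted p = 0.0107). In clones labelled KO it was 0.23 (SE 0.32, edgeR adjusted p = 0.724).

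**Figure D2:**
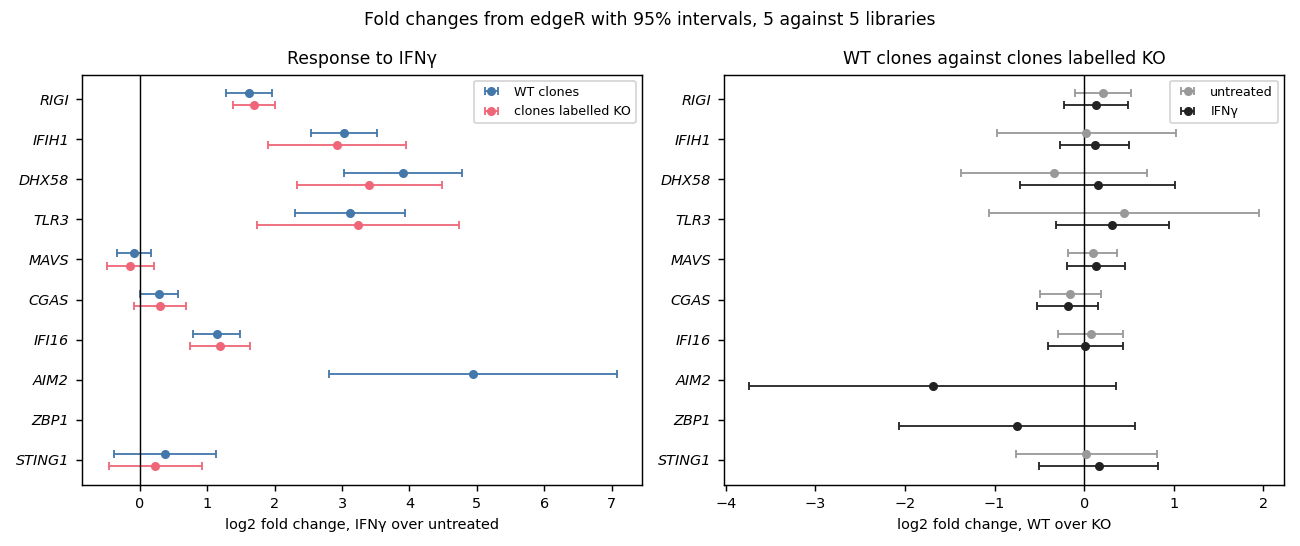
Log2 fold changes of the members with 95% intervals from edgeR, 5 against 5 libraries, for IFNγ over untreated (left) and WT over clones labelled KO (right). Members without a point did not pass the filter on low counts. On the left the intervals of RIGI, IFIH1, DHX58, TLR3 and IFI16 lie above 0 in both genotypes, and on the right every interval crosses 0.

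The calls in clones labelled KO depended on which clones were in the fit. Without KO replicate 2 they numbered 6 (RIGI, IFIH1, DHX58, TLR3, IFI16 and AIM2), and without any other single clone labelled KO, replicate 3 included, RIGI alone was called. The number of all genes called higher moved as well, from 329 to 403 without KO replicate 2 and to between 123 and 160 without one of the others. Fitted over all 20 libraries, so that the spread of the WT clones was shared, 7 members were called in clones labelled KO, AIM2 and ZBP1 among them, while 519 of 21052 genes were called higher in place of 329 of 19385. AIM2 and ZBP1 had not entered the fit of clones labelled KO alone. They passed the filter over 20 libraries only through treated libraries, where they were high, so these calls add no support.

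No member was called between WT clones and clones labelled KO, which asks whether ZBTB48 bears on the sensors. Without IFNγ 0 of 8 members tested were called, beside 0.0154% of all 19505 genes, and the log2 fold changes ran from -0.33 (DHX58) to 0.44 (TLR3). With IFNγ 0 of 10 were called, beside 0.0155% of 19383 genes. For 0 of the 10 members did the groups stand apart, where 0.959% of all genes did so without and 0.825% with IFNγ. By edgeR 0 members had an unadjusted p under 0.05 in either condition, the lowest adjusted p being 0.98 and 0.996, and DESeq2 also called 0. Without KO replicate 3, the clone whose ZBTB48 RNA was not below that of WT clones, 0 members were called in either condition. RIGI differed by 0.21 on the log2 scale without IFNγ (95% interval -0.10 to 0.52) and by 0.13 with it (-0.22 to 0.49), so that a 2-fold difference lay outside. For TLR3 without IFNγ the interval ran from -1.06 to 1.95 and did not exclude one.

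Among the members the largest difference between genotypes was that of AIM2 with IFNγ. Its mean was 2.29 ± 2.82 CPM in WT clones and 7.20 ± 5.14 CPM in clones labelled KO (SD, n = 5). The log2 fold change of -1.69 (95% interval -3.74 to 0.36, edgeR adjusted p = 0.996) did not pass, the groups overlapped, and KO replicate 2 was the lowest of all 10 treated libraries. The difference between the responses of the genotypes was tested directly in a model over the 20 libraries, where 0 of 10 members and 0% of 21052 genes were called, 86 genes having an unadjusted p under 0.05. The response of each clone, treated minus untreated log2(CPM + 0.1), was compared in two-sided exact permutation tests of 5 against 5 clones, whose smallest possible p is 0.00794. Over the 10 members tested the unadjusted exact p ran from 0.238 (AIM2) to 0.944 (IFIH1). Responses averaged 3.08 ± 0.46 in WT clones and 3.19 ± 1.02 in clones labelled KO for IFIH1, and 3.23 ± 1.35 and 4.84 ± 2.63 for AIM2 (SD, n = 5).

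Levels were compared between genes per exon length, as FPKM, TMM-scaled CPM divided by exon length in kb. In untreated WT clones IFI16 (11.5 ± 1.70) and MAVS (8.68 ± 1.02) led and overlapped, followed by CGAS (4.43 ± 0.31), RIGI (3.17 ± 0.48), STING1 (2.66 ± 1.02), IFIH1 (1.58 ± 0.49), TLR3 (0.663 ± 0.297), DHX58 (0.0649 ± 0.0245), AIM2 (0.00885 ± 0.00815) and ZBP1 (0.00407 ± 0.00589; SD, n = 5). Neighbours overlapped from RIGI down to TLR3 and for the last pair, whereas MAVS stood clear of CGAS, CGAS of RIGI, TLR3 of DHX58 and DHX58 of AIM2. With IFNγ the order in WT clones was IFI16 (25.6 ± 5.41), IFIH1 (12.9 ± 1.66), RIGI (9.83 ± 1.89), MAVS (8.20 ± 0.84), TLR3 (5.82 ± 0.95), CGAS (5.43 ± 0.84), STING1 (3.46 ± 1.36), DHX58 (0.983 ± 0.424), AIM2 (0.277 ± 0.341) and ZBP1 (0.0653 ± 0.0314). IFIH1 thus moved from below MAVS and CGAS to above both, while IFI16 stood first in all 4 groups. In treated WT clones IFI16 was clear of IFIH1 and MAVS of TLR3, and all other neighbours overlapped. The order of the untreated clones labelled KO was the same as that of the untreated WT clones.

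**Figure D3:**
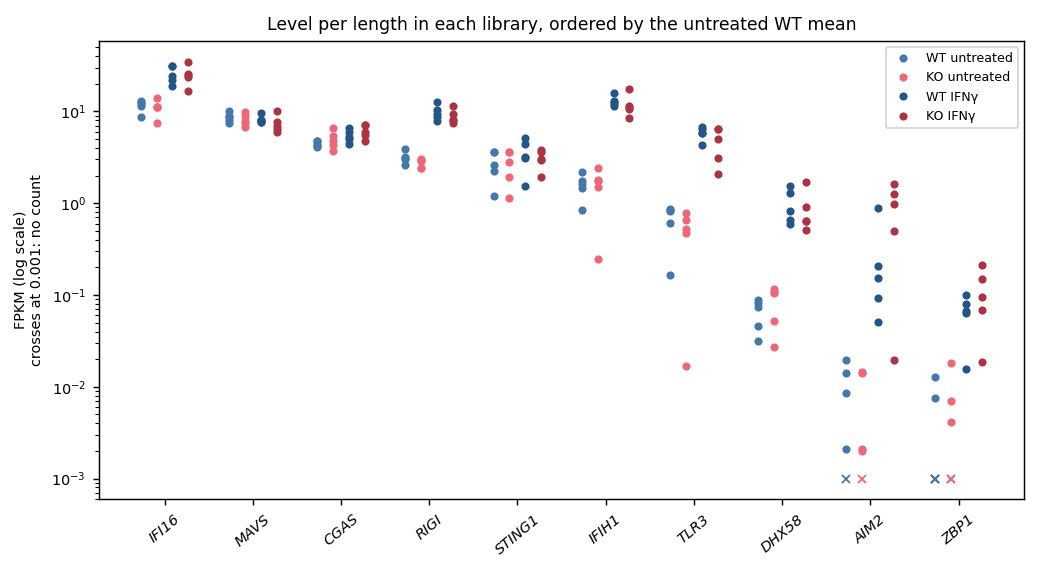
FPKM of each member in each library on a log axis, ordered by the mean of the untreated WT clones. Crosses at 0.001 are libraries with no count. The means of IFIH1, TLR3, DHX58, AIM2 and ZBP1 rise by the largest factors with IFNγ, and the points of MAVS and CGAS overlap between treatments.

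For some members 1 clone of each genotype stood apart from the others, and this pair was picked after the values had been seen. WT replicate 5 and KO replicate 2 were the lowest untreated libraries of their groups for 4 of the 10 members, IFIH1, TLR3, IFI16 and STING1, a pattern held by 9.03% of 21052 genes. They were the highest for MAVS, as for 9.28% of genes. With IFNγ they were the lowest for TLR3, IFI16, ZBP1 and STING1 (7.83% of genes) and again the highest for MAVS (6.56%).

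IFIH1 and TLR3 showed this most. In the untreated KO replicate 2 TLR3 was 35.3-fold and IFIH1 7.13-fold below the median of the other 4 clones labelled KO. In the untreated WT replicate 5 the same genes were 5.06-fold and 1.97-fold below the other WT clones. The gap narrowed with IFNγ, to 2.75-fold for TLR3 and 1.31-fold for IFIH1 in KO replicate 2 and to 1.43-fold and 1.00-fold in WT replicate 5. On the log2(CPM + 0.1) scale the responses of these clones were accordingly large. IFIH1 rose 31.9-fold in KO replicate 2 and 6.10-fold to 7.12-fold in the other clones labelled KO, and TLR3 rose 62.5-fold against 6.46-fold to 12.1-fold. The added 0.1 CPM lowers the value of TLR3 in KO replicate 2, which started from 0.101 CPM, and the ranges include the uncertain pairs of KO replicates 4 and 5. RIGI did not share the pattern, at 11.4 CPM in the untreated KO replicate 2 beside 11.3 to 14.0 in the others. AIM2 ran the other way, moving from 0.121 to 0.162 CPM in KO replicate 2, while the other treated clones labelled KO held 4.17 to 13.2 CPM. Its untreated counts were too few for fold changes by clone.

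**Figure D4:**
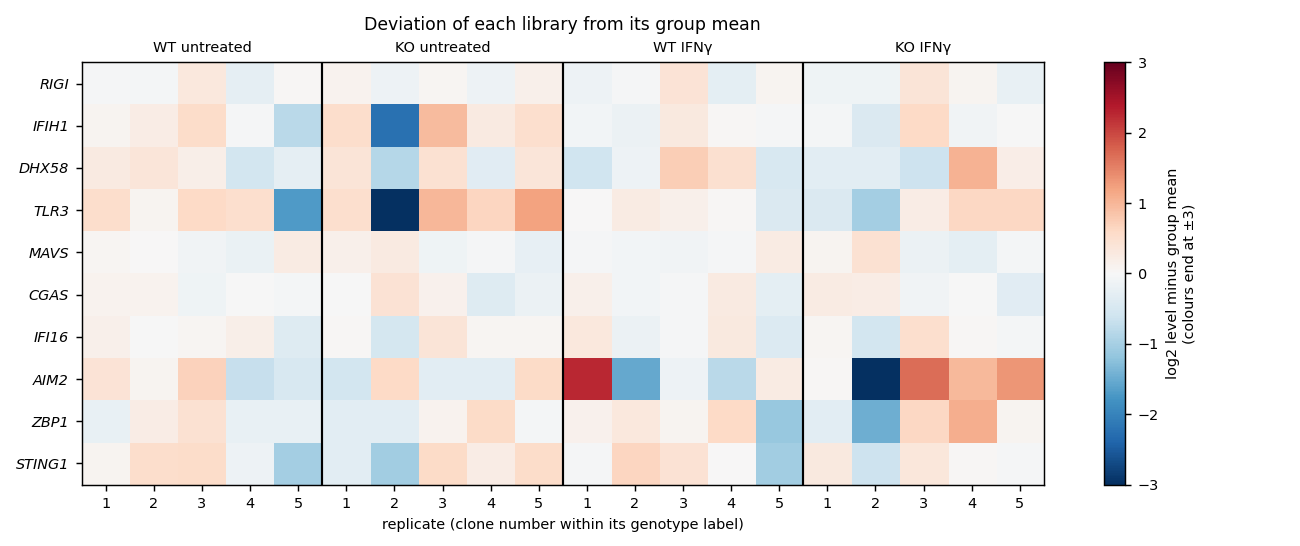
Deviation of each library from its group mean in log2(CPM + 0.1), with members as rows and the 20 libraries as columns, coloured from -3 to 3. Blue cells for IFIH1, TLR3, IFI16 and STING1 mark WT replicate 5 and KO replicate 2 without IFNγ, and AIM2 varies most between treated clones.

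Deviations from the group means were correlated over the 20 libraries, as a description, the libraries being 2 from each of 10 clones. IFIH1 and TLR3 went together (r = 0.91), as did TLR3 and STING1 (0.74), while RIGI followed IFIH1 less (0.41) and TLR3 little (0.22). The untreated KO replicate 2 weighs heavily here, with deviations of -2.24 for IFIH1 and -3.35 for TLR3, and r without it was not computed. MAVS ran against ZBP1 (-0.79), STING1 (-0.74), IFI16 (-0.73) and TLR3 (-0.72). Few counts limit the value for ZBP1, which had at most 5 counts in an untreated library. AIM2 had the largest SD between clones, 1.22 on the log2 scale as a mean over the 4 groups, above 97.0% of the 21052 genes, and the genes most like it were KIR2DL4 (r = 0.88), PHC2 (0.81) and MTMR9 (0.81). The genes nearest to IFIH1 and TLR3, looked at after the values were known, were DDX60 (0.96), a helicase raised by interferons, and PARP10 (0.97). In the untreated KO replicate 2 DDX60 and PARP10 were also 12.3-fold and 11.3-fold below the median of the other clones labelled KO.

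MAVS followed its chromosome. The 3 genes most like it, BCAS4, TCFL5 and CBFA2T2 (r = 0.92, 0.91 and 0.91), all lie on chromosome 20, as MAVS does, and so did 21 of its 50 nearest genes (42%), where 2.76% of all genes do. The median deviation of the other 581 genes of chromosome 20 correlated with that of MAVS at r = 0.87 over the 20 libraries. It was 0.23 and 0.19 in WT replicate 5 and 0.22 and 0.22 in KO replicate 2, without and with IFNγ, where MAVS deviated by 0.24 and 0.24 and by 0.26 and 0.47. ZBP1, on the same chromosome, correlated with the chromosome's median at -0.65, and none of its 50 nearest genes lay there. With at most 5 counts in an untreated library and 56 in a treated one, ZBP1 is a weak comparison for MAVS. IFI16 had 28% of its 50 nearest genes on chromosome 1 (9.66% of all genes) and STING1 18% on chromosome 5 (4.86%). This look at position was chosen after the values had been seen, and its cause was not tested.

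**Figure D5:**
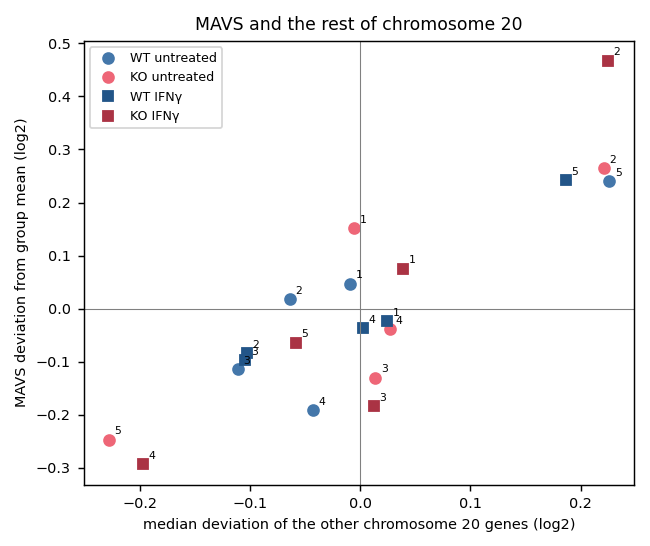
Deviation of MAVS from its group mean against the median deviation of the other genes of chromosome 20, both in log2, one point per library with its replicate number. WT replicate 5 and KO replicate 2 lie at the upper right with and without IFNγ, and the untreated KO replicate 5 and the treated KO replicate 4 at the lower left.

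Of 61 other genes of these pathways, 11 of 50 tested were called higher with IFNγ in WT clones and 0 lower. In clones labelled KO 8 of 49 were called higher and 0 lower. Over all genes tested 2.48% and 1.7% were called higher. Lower calls numbered 100 of 19522 and 50 of 19385, so that 0 lower among the pathway genes says little. Between genotypes 0 were called with or without IFNγ, beside 3 of 19505 genes without it and 3 of 19383 with it. Of the regulators of RIG-I-like receptors 2 of 7 were called higher in both genotypes. TRIM25, which attaches ubiquitin to RIG-I, rose by a log2 fold change of 1.36 in WT clones and 1.42 in clones labelled KO, and USP18, an inhibitor of interferon signalling, by 2.02 and 2.03. Of the adaptors 0 of 8 were called in either genotype, and those with the highest mean CPM over the 20 libraries were TANK (0.63 and 0.65) and FADD (0.17 and -0.03). Of the kinases 0 of 5 tested were called, those with the highest mean CPM being CHUK (0.10 and 0.08) and IKBKB (-0.05 and -0.09). Among the transcription factors IRF1 was called in both (4.96 and 4.72).

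Of the nucleases and editors that keep self nucleic acid from the sensors, 1 of 9 tested was called in both genotypes, SAMHD1, which degrades dNTPs (2.81 and 2.64). The DNA exonuclease gene TREX1 was listed at 0 in all 20 libraries. Overlaps with other genes were looked at only for the 10 members. Whether reads of TREX1 were left uncounted or went to another gene was not tested, so the 0 is not read as absence. Of the inflammasome and necroptosis effectors 4 of 5 tested were called in WT clones and 1 of 5 in clones labelled KO, and the difference between these counts was not tested. The protease gene CASP1 rose by 5.41 and 5.26, and MLKL, the effector of necroptosis, by 1.96 in WT clones, while its 2.0 in clones labelled KO did not pass (edgeR adjusted p = 0.0472). PYCARD, the adaptor through which AIM2 reaches CASP1, had at most 10 counts in a library, and RIPK3, through which ZBP1 reaches MLKL, at most 18. Of the other sensors DDX60 was called in both genotypes, 1 of 8 tested in WT clones and 1 of 7 in clones labelled KO (3.36 and 3.20). Of the outputs IFNB1 had at most 2 counts in a library, and the chemokine gene CXCL10 was called in both genotypes. The mean of CXCL10 went from 0.0168 to 168 CPM in WT clones and from 0.00788 to 97.2 CPM in clones labelled KO. Its treated libraries ranged from 41.7 to 440 CPM (WT) and from 12.9 to 220 CPM (labelled KO). With at most 4 counts in an untreated library, it passed the filter on low counts only through its treated libraries. Its calls, counted among those of the pathway genes, thus add no support.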

How the data were processed

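In 20 libraries, the authors deposited counts for 43366 genes of RefSeq, not normalized, made per the labels with STAR 2.7.9a on GRCh38 and featureCounts 2.4.0. The strand setting is not given in the sources used here. All count columns were matched to samples by their names, and 0 were left over. TMM-scaled CPM and FPKM were computed here. Each comparison was fitted on its own libraries in edgeR 4.0.16 (R 4.3.3) with filterByExpr and the robust quasi-likelihood test, with p values adjusted by Benjamini-Hochberg across every gene tested. Standard errors come from the fold change and the F statistic. The study's methods name DESeq2, and DESeq2 1.42.0 was an alternative, as were its size factors, no filter, all 20 libraries together, a clone block, other cut-offs and leaving out each clone. The edgeR test was tried on simulated data for untreated WT against KO only, with changes placed in genes of higher level. The other procedures were not tried in this way.

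Positive log2 fold changes mean higher with IFNγ or higher in WT. Replicate numbers name clones within a genotype, per the clone labels, and pair treated with untreated libraries only there. Numbers of WT clones and clones labelled KO do not pair, their deviations correlating at -0.21 to 0.23. Counts limit precision near 3 counts, taken as the floor. Clones are separate isolates of 1 cell line, so p values measure the spread between clones. The members, gene lists, tests and named genes were chosen with earlier results of these data known. All members were named, as were, in each pathway class, the 2 called genes with the largest change or, with none called, the 2 with the highest mean CPM, and the 3 genes most like the member with the largest spread between clones. Promoter sequences come from RefSeq on GRCh38.p14. The values of 1 gene that this rule names are not reported here, though the counts over all pathway genes include it. The paper's other assays were not analysed here.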

Additional observations from a re-analysis of the deposited data

Results flagged for a closer look

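Of 60 groups of 5 values tested with Dixon's test, 40 of CPM and 20 of clone responses, 5 had a value farther from the others than its critical value of 0.71, where chance gives about 3. The response of IFIH1 in KO replicate 2 was 5.00 on the log2(CPM + 0.1) scale, and the nearest other clone labelled KO was at 2.83. The response of TLR3 in the same clone was 5.97, with the nearest at 3.59. The response of AIM2 in the same clone was 0.245, the lowest, with the other clones labelled KO between 5.42 and 6.84, values that the added 0.1 sets in large part since untreated clones held 0 to 6 counts. Among treated WT clones, MAVS stood highest in replicate 5, at 115 CPM beside 95.3 CPM in the next, and AIM2 stood highest in replicate 1, at 7.25 CPM beside 1.71 CPM in the next. The treated and untreated libraries of KO replicates 4 and 5 could not be paired with confidence, and they enter these responses as numbered. The causes of these values were not tested.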

How the results depend on the processing

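With IFNγ, all members tested kept their direction in both genotypes under every alternative run. In WT clones 5 or 6 members were called under every alternative, and 5 (without AIM2) when any 1 clone was dropped. Over all genes 485 were called higher in WT clones, and from 284 (without WT replicate 2) to 1363 (adjusted p under 0.05, no fold cut-off) under the alternatives. The count in clones labelled KO was 4, and it was 3 with no filter (IFIH1 at an adjusted p of 0.011), 4 with DESeq2's size factors, 5 with DESeq2, with the replicate block or at an adjusted p under 0.05 with no fold cut-off, 7 with all 20 libraries fitted together, 2 with the replicate block and KO replicates 4 and 5 left out, and 1 to 6 with each clone left out in turn. Over all genes, 329 were called higher there, and 612 with DESeq2 (580 shrunk), 526 with the block, 1049 at 0.05, 519 with all 20 libraries, 239 with the reduced block and 123 to 403 with 1 clone fewer. AIM2 in WT clones missed the threshold without the filter (adjusted p = 0.0162). Between genotypes, and for the difference of responses, 0 members were called under every alternative, the replicate block included, and no change of sign below belongs to a called value.

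With WT replicate 5 and KO replicate 2 both left out, an alternative chosen after seeing the data, the log2 fold change between genotypes became -0.092 for IFIH1 without and -0.022 for IFI16 with IFNγ. Leaving out single clones, it ranged, without IFNγ, from -0.25 to 0.24 for IFIH1, from -0.044 to 0.17 for IFI16 and from -0.17 to 0.21 for STING1. With IFNγ it ranged from -0.079 to 0.53 for DHX58, from -0.10 to 0.15 for IFI16 and from -0.023 to 0.34 for STING1. The difference of responses ranged from -0.17 to 0.0036 for RIGI, -0.068 to 0.26 for IFIH1, -0.019 to 0.092 for MAVS, -0.11 to 0.049 for CGAS, -0.70 to 0.78 for ZBP1 and -0.021 to 0.28 for STING1. Under the replicate block that of IFIH1 was -0.057, and with KO replicates 4 and 5 also left out it was -0.25 for IFIH1, 0.040 for CGAS and -0.19 for STING1. The causes were not tested. Few counts limit DHX58, AIM2 and ZBP1 in untreated clones, and the doubtful pairs of KO replicates 4 and 5 limit the block there.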

Other observations

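Some other genes of the sensing pathways rose in both genotypes by less than 2-fold, and were chosen for mention after their values had been seen. ADAR, which edits double-stranded RNA and keeps it from MDA5, had a log2 fold change of 0.98 with IFNγ in WT clones (SE 0.09, edgeR adjusted p = 3.81e-05) and 0.94 in clones labelled KO (SE 0.12, edgeR adjusted p = 0.00112). EIF2AK2, the gene of the double-stranded RNA kinase PKR, had 0.84 (SE 0.10, edgeR adjusted p = 3.22e-04) and 0.84 (SE 0.16, edgeR adjusted p = 0.00856). CASP8, the gene of a caspase that restrains necroptosis, had 0.94 (SE 0.08, edgeR adjusted p = 4.28e-05) and 0.97 (SE 0.11, edgeR adjusted p = 4.51e-04). For these 3 genes every treated library lay above every untreated one in both genotypes.

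TRAF3, an adaptor that several of these receptors share, was also picked after its values had been seen. It differed between WT clones and clones labelled KO by 0.60 on the log2 scale with IFNγ (SE 0.15) and by 0.57 without (SE 0.22). This did not pass the correction (edgeR adjusted p = 0.827 and 0.98), and the groups overlapped. Without IFNγ other pathway genes differed by more, ENPP1 by 1.44 and RNF125 by -0.73 among them. The unadjusted edgeR p was under 0.05 for 8 of 49 pathway genes tested there, beside 935 of all 19505 genes.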
